A study of Arabidopsis thaliana with 6 samples.

Results

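The genes described here differed in the same direction at each of 2 successive genetic steps in Arabidopsis thaliana seedlings. The first step added IBH1 to wild type, and the second added PRE1 on top of IBH1. Members were chosen by the deposited group means themselves: a gene was taken when their ratio was at least 1.5 at both steps, or at most 1/1.5 at both, with the larger mean at least 20 in each table. Of the 1547 genes listed in both deposited tables, 1438 passed the limit on the mean and 74 were members, 31 higher and 43 lower at both steps. The whole second table holds 33518 genes. Since these ratios selected the members, they are given below as a description and carry no test.

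The study sequenced RNA of whole Col-0 seedlings after 5 days on half-strength MS in constant light, with 2 libraries for each of 3 groups. Wild type carries no transgene. The second group carries 35S:IBH1-myc and is called IBH1-Ox. The third carries 35S:IBH1-myc together with 35S:PRE1-YFP and is called PRE1-Ox/IBH1-Ox, or the double line. Both transgenes are driven by the 35S promoter of a plant virus, which is active in most tissues, so neither was limited to a cell type. How many independent transgenic lines stood behind each group, the hour of harvest and whether the 2 libraries came from separate cultures are not given in the sources used here. The p-values therefore set the difference between groups against a spread estimated from these libraries, which may be technical. In RNA of whole seedlings, fewer cells of a type and less RNA per cell cannot be told apart.

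IBH1 is an atypical helix-loop-helix protein that binds bHLH activators and keeps them off DNA, and it restrains cell elongation. PRE1, a still smaller protein of this class, binds IBH1 and so frees those activators. A gene with both steps in the same direction is thus one whose level added PRE1 did not bring back towards wild type. The plant circadian clock, to which several of the members belong, is a set of transcription factors that repress one another at successive times of day, with morning factors such as CCA1 and LHY, daytime pseudo-response regulators and an evening complex.

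The same direction was the less common outcome. Of 773 genes listed as higher in IBH1-Ox and past the limit on the mean, 31 were at least 1.5-fold higher again in the double line, 405 were at least 1.5-fold lower there and 337 lay under 1.5-fold either way. The 31 are 4.01% of that list. Of all 19298 genes past the limit on the mean, 1645 (8.52%) were at least 1.5-fold higher in the double line. The 31 are 1.88% of these 1645, while 3.22% of about 24764 tested genes, with no limit on the mean, were listed as higher first. Of 665 genes listed as lower in IBH1-Ox, 43 were lower again, 337 were higher and 285 lay under 1.5-fold. The 43 are 6.47% of that list, while 1610 of the 19298 genes (8.34%) were at least 1.5-fold lower in the double line. The 43 are 2.67% of these 1610, while 3.03% of the tested genes were listed as lower at the first step. Both comparisons use the same IBH1-Ox libraries, whose error enters the 2 ratios with opposite sign, so no test of the overlap is given.

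**Figure D1:**
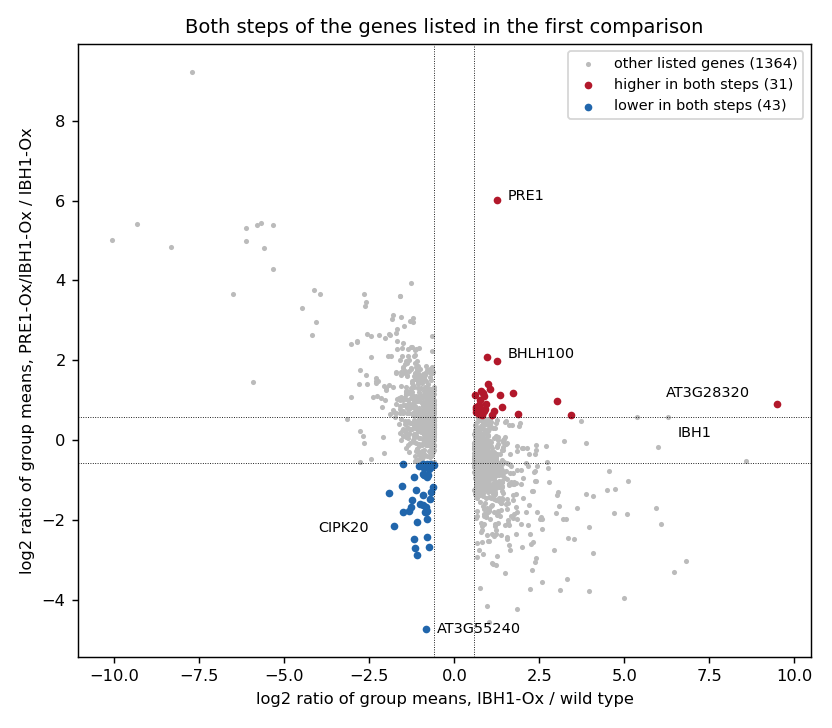
Log2 ratio of the deposited group means of double line over IBH1-Ox (vertical axis) against that of IBH1-Ox over wild type (horizontal axis), for the 1438 listed genes past the limit on the mean. Each point is 1 gene, the dotted lines mark 1.5-fold, and the 31 genes higher and 43 lower at both steps are coloured, with PRE1 and AT3G28320 lying far from the other higher members.

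Among the 31 higher members the median log2 ratio was 0.91 at the first step (range 0.60 to 9.50) and 0.87 at the second (0.62 to 6.01). Among the 43 lower members it was -0.91 at the first step (-1.92 to -0.59) and -1.33 at the second (-4.73 to -0.59). Over all genes past the limit on the mean, the median log2 ratio of the second step was -0.0052. The second step was the larger of the 2 in 16 of 31 higher and 27 of 43 lower members. Multiplied over both steps, the median member stood 3.74-fold higher or 5.19-fold lower in the double line than in wild type. At a limit of 2-fold at both steps 5 higher and 13 lower members were left.

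Every member was already past the authors' test at the first step, since the first table lists only such genes, 3.22% of about 24764 tested genes as higher and 3.03% as lower. At the second step the authors' deposited table gave an adjusted p below 0.05 to 24 of the 31 higher members, where 12.7% of all tested genes were called higher and 22.5% in either direction. It gave one to 34 of the 43 lower members, where 9.78% of all tested genes were called lower. Among genes past the limit on the mean, 28.1% were called in either direction. The choice by ratio favours such genes, and nothing is read from these counts. The 7 higher members that missed this limit were AT1G69140, CCD8, HRGP1, AT5G47250, AT3G54580, MAPKKK16 and AT5G59670. The 9 lower ones were AT3G49160, HMT3, AT4G10510, AT3G50350, AT2G34010, SAUR65, AT3G45443, SAUR26 and NIP6;1.

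Log2 ratios and folds throughout were computed from the deposited group means. Per-library values below are whole reads recovered from the deposited means and divided by the authors' size factors, as normalized counts on the scale of the first table. In each group the library with the larger size factor is given first. Over genes, 13978598 and 12239699 reads were recovered for IBH1-Ox and 9544347 and 8015121 for the double line, while the wild type libraries could be read only over the listed genes, with 1151302 and 783116 reads. In all 31 higher and all 43 lower members the 3 groups kept their order in every library, with no overlap between neighbouring groups. Such separation was found in 100% of the listed genes at the first step and in 69.9% of all genes past the limit on the mean at the second, so it does not mark the members. Of tissue markers, the photosynthetic genes RBCS1A and RCA stood at means of 271558 and 137743 in IBH1-Ox in the second table, and all 6 root hair genes of a short list were read as well, as in a whole seedling. Of 14 seed storage and oil breakdown genes, none of them a member, 5 were listed as higher and 1 as lower at the first step, and the authors' deposited table called 2 higher and 3 lower at the second.

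The largest group of lower members with related roles was formed by clock and light signalling genes. There were 10 of them, the pseudo-response regulators PRR9 and PRR7, GI, the coactivator genes LNK1, LNK3 and LNK4, the DOF factor CDF3, the B-box genes BBX24 and BBX28, and the bHLH factor PIF4. Only 3 genes of this kind were among the higher members, the MYB-like factor RVE2, the histone demethylase JMJ30 and the CONSTANS-like gene COL9. The group was put together after the values had been seen, so its size is a description.

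PRR9 (AT2G46790) and PRR7 (AT5G02810) encode repressors of the morning clock genes CCA1 and LHY. PRR9 stood at 174 and 174 normalized counts in wild type, 51.4 and 40.6 in IBH1-Ox, and 17.64 and 18.9 in the double line. Each group lay well below the one before it, with a first step of -1.92 ± 0.17 and a second of -1.33 ± 0.18 on the log2 scale (SE, 2 libraries per group, as for all log2 ratios that follow). This SE comes only from the gap between the 2 libraries of a group, so it can fall below counting error where they nearly match. PRR9, for example, had only 10 and 9 reads in the double line. PRR7 stood at 1877 and 1991, then 955 and 857, then 217 and 222 normalized counts. Its second step (-2.04 ± 0.080) was the larger, against -1.09 ± 0.089 at the first, and over both it was 8.80-fold lower than in wild type.

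GI (AT1G22770), a large protein of the evening that ties the clock to flowering, stood at 1166 and 1266 normalized counts in wild type, 736 and 772 in IBH1-Ox, and 552 and 401 in the double line. The libraries of the double line lay far apart for this gene, and its second ratio was 1.58-fold lower, near the limit. Its log2 ratios were -0.69 ± 0.068 and -0.66 ± 0.23. Without the double-line library of smaller size factor GI is no longer a member.

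LNK genes encode coactivators that work with RVE transcription factors in the morning. LNK4 (AT5G06980) stood at 1167 and 1106 normalized counts in wild type, 474 and 533 in IBH1-Ox, and 108 and 73.5 in the double line. LNK1 (AT5G64170) stood at 1519 and 1375, then 798 and 831, then 256 and 258. LNK3 (AT3G12320) stood at 737 and 605, then 382 and 384, then 95.2 and 101. All 3 had a second step larger than the first, by log2 ratios of -2.48 ± 0.29 after -1.17 ± 0.093 for LNK4, -1.66 ± 0.030 after -0.83 ± 0.078 for LNK1, and -1.97 ± 0.041 after -0.81 ± 0.14 for LNK3. The remaining family member on the clock list, LNK2, was at a log2 ratio of -2.24 at the second step from the means in the authors' deposited table and was not listed at the first.

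PIF4 (AT2G43010), the bHLH factor through which warmth and shade promote stem growth, stood at 1164 and 1184 normalized counts in wild type, 673 and 667 in IBH1-Ox, and 125 and 126 in the double line. The libraries of each group nearly coincided, and the log2 ratios were -0.81 ± 0.014 and -2.42 ± 0.0078. With 71 and 60 reads in the double line, the second SE lies below counting error. PIF4 lies 19.92 kb from IBH1 on chromosome 2, with 4 annotated genes between them. Its relative PIF5 was at -2.18 at the second step from the means in the authors' deposited table and was not listed at the first, and PIF7 was at -0.74 and then at -0.28, with an adjusted p of 0.128 from the authors' deposited table for the second.

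The B-box proteins are zinc finger factors of light signalling. BBX24 (AT1G06040, also called STO) stood at 5126 and 5013 normalized counts in wild type, 2758 and 2992 in IBH1-Ox, and 1485 and 1534 in the double line. BBX28 (AT4G27310) stood at 881 and 798, then 429 and 512, then 123 and 145. CDF3 (AT3G47500), a DOF factor whose family delays flowering and is degraded with the help of GI, stood at 994 and 998, then 451 and 468, then 178 and 206. No libraries of neighbouring groups overlapped in any of the 3, and over both steps they were 3.36-fold, 6.26-fold and 5.19-fold lower than in wild type.

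RVE2 (AT5G37260, also called CIR1) encodes a MYB-like factor related to CCA1. It stood at 1053 and 1023 normalized counts in wild type, 1973 and 1999 in IBH1-Ox, and 3750 and 3744 in the double line. The 2 steps were nearly equal, at 0.94 ± 0.023 and 0.92 ± 0.0095 on the log2 scale. JMJ30 (AT3G20810), a jumonji demethylase with evening expression, stood at 152 and 197, then 319 and 313, then 744 and 699. COL9 (AT3G07650), a B-box gene known to delay flowering, stood at 283 and 267, then 468 and 454, then 894 and 942. These 3 genes thus stood 3.61-fold, 4.14-fold and 3.34-fold higher in the double line than in wild type.

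**Figure D2:**
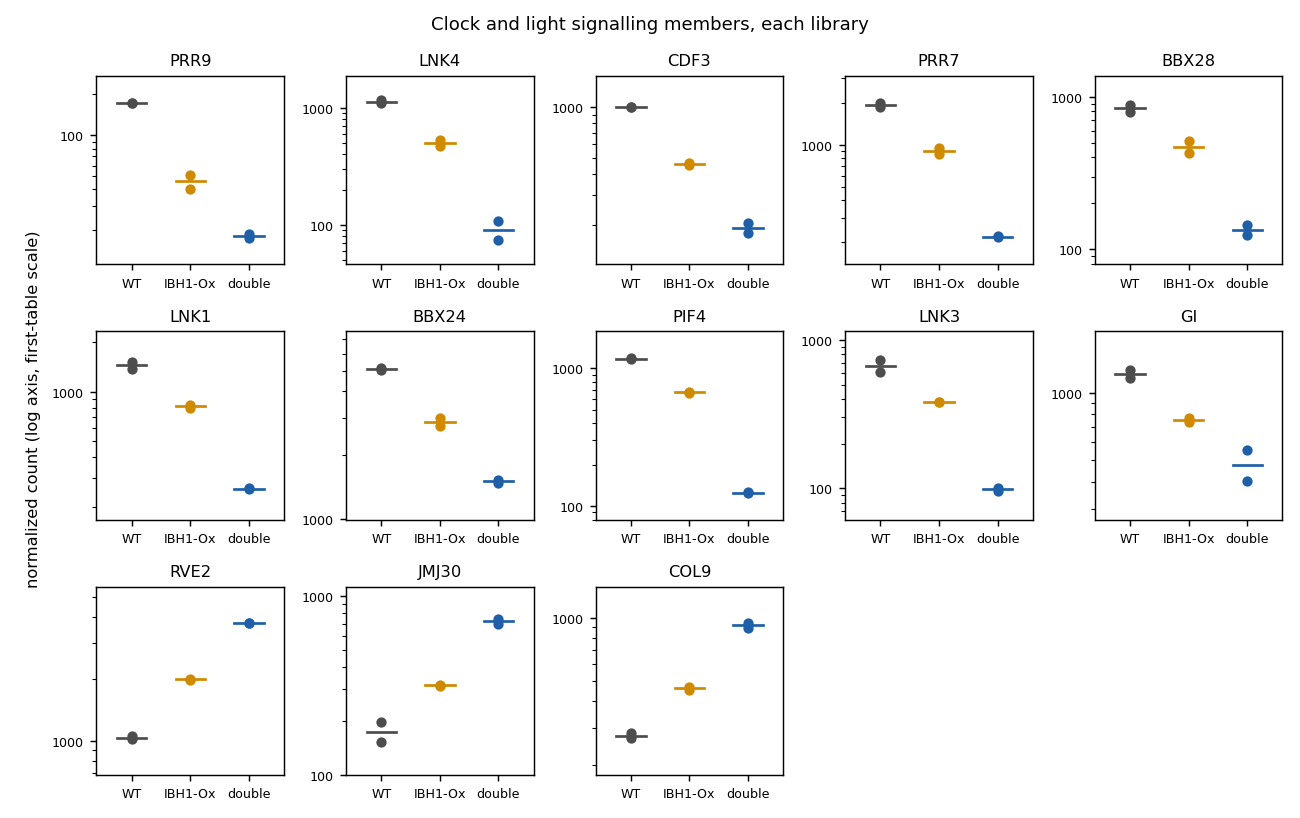
Normalized counts (log axis, scale of the first table) of the 13 clock and light signalling members in each library of wild type (WT), IBH1-Ox and the double line; points are libraries and bars are group means. In the first 10 panels the double line is lowest, in the last 3 panels it is highest, and no libraries of neighbouring groups overlap; GI has the double-line libraries at 552 and 401.

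The members were 5 of the 16 genes on a list of clock genes, PRR9, PRR7, GI and LNK1 as lower and RVE2 as higher. Of the same 16 genes, 2 were listed as higher and 5 as lower at the first step, and the authors' deposited table had 4 higher and 9 lower at the second, with a median log2 ratio of -0.52. The clock genes that were not members split by step. CCA1 and LHY were not listed at the first step and stood at -1.06 and -0.94 at the second from the means in the authors' deposited table. PRR5 was at -0.72 and then at 0.33 from the means in the authors' deposited table (adjusted p = 0.0953 for the latter). PRR3 came close to membership, at 1.49 and then 0.45 from the means in the authors' deposited table (adjusted p = 0.00335 for the second), under the limit of 1.5-fold. TOC1, ELF3 and LUX were not listed at the first step and stood between 0.15 and 0.23 at the second from the means in the authors' deposited table. ELF4 was likewise not listed at the first step, and stood at 0.68 at the second (adjusted p = 9.41e-08 in the authors' deposited table). RVE1 and RVE8, also not listed at the first step, stood at -1.01 and -0.39 at the second from those means. Light-harvesting transcripts were lower at the second step, LHCB1.1 at -2.07, LHCB2.1 at -2.32 and LHCA1 at -1.87 from the means in the authors' deposited table. RBCS1A stood at 0.32. None of the 8 photosynthetic genes of the marker list was listed at the first step, and their part in the second was not tested.

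Stretches upstream of 7 of these genes are shown because they hold the sequence elements through which clock and bHLH factors are known to act. They were read from the RefSeq genome (TAIR10.1) 5′ to 3′ on the strand of the gene, and capitals mark an evening element (AAAATATCT or its reverse complement, bound by CCA1, LHY and RVE proteins) or a G-box (CACGTG, bound by bHLH and bZIP factors). COL9 holds 2 evening elements between 465 and 373 bases before its annotated start, at chr3:2441100-2441192 on the plus strand. BBX28 holds 1 at chr4:13675124-13675172 (plus strand), and BBX24 holds 1 at chr1:1830007-1830055 (minus strand), within 72 bases of its start. PRR9 holds 2 G-boxes at chr2:19232343-19232460 (plus strand), and LNK3 holds 2 at chr3:3923324-3923399 (plus strand). PRR7 holds 1 at chr5:642206-642251 and RVE2 holds 1 at chr5:14753226-14753271, both on the minus strand.
COL9: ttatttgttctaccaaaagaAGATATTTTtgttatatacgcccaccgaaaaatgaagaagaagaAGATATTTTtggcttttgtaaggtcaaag
BBX28: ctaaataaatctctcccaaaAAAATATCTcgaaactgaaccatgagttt
BBX24: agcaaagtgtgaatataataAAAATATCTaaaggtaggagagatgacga
PRR9: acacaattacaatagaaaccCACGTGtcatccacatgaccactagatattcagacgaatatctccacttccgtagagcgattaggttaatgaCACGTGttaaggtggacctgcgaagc
LNK3: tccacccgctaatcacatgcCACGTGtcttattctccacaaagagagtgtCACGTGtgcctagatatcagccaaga
PRR7: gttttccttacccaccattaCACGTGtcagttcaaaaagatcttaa
RVE2: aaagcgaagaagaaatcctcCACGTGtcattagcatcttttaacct

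Over the 500 bases before the annotated start, on either strand, the evening element was found in 5 of 43 lower members (11.6%), namely CIPK20, MYBL2, BBX24, BBX28 and AT2G30600, and in 2 of 31 higher members (6.45%), COL9 and AT1G13609. It was found in 4.51% of all 19213 genes past the limit on the mean. The G-box was found in 6 lower members (14%) and 4 higher members (12.9%), against 10.3% of all genes. The lower ones were PRR9, PRR7, LNK3, HMT3, ABCB21 and AT2G43140, and the higher ones RVE2, BHLH100, MAPKKK16 and AT5G05250. The CCA1-binding site AAAAATCT was found in 11.6% of lower and 16.1% of higher members, against 12.4% of all genes. CACATG, a variant of the G-box that PIF factors are known to bind, was found in 32.6% of lower and 25.8% of higher members, against 21.0% of all genes. In a window of 1000 bases, chosen after seeing the data, the order of the groups turned for the evening element, which was found in 6 higher members (19.4%) and 7 lower ones (16.3%), against 7.25% of all genes. In that window the G-box was found in 12.9% of higher and 23.3% of lower members (16.1% of all genes), the CCA1-binding site in 16.1% and 16.3% (20.7%), and CACATG in 38.7% and 44.2% (38.2%). The shares thus depend on the window, and these are matches of letters and not sites shown to be bound.

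Hormone genes made up 5 of the lower members and 1 of the higher. SAUR63, SAUR65 and SAUR26 belong to the small auxin-up RNAs, short proteins that promote expansion growth. SAUR63 (AT1G29440) stood at 185 and 168 normalized counts in wild type, 118 and 110 in IBH1-Ox, and 75.8 and 71.4 in the double line. SAUR65 (AT1G29460) stood at 96.8 and 89.0, then 54.6 and 35.7, then 30.0 and 27.3, and SAUR26 (AT3G03850) at 73.0 and 63.1, then 45.0 and 33.2, then 26.5 and 25.2. All 3 second steps lay close to the limit, at log2 ratios of -0.63 ± 0.068, -0.66 ± 0.31 and -0.60 ± 0.22, and each of these genes dropped out when 1 of the libraries was left out. SAUR63 and SAUR65 are 2.244 kb apart on chromosome 1 with 1 gene between them, in a cluster of near copies. Their reads may be left out for having more than 1 alignment, or assigned to the wrong copy, and neither was tested. Of 20 genes on an auxin list, 17 of them SAURs, 11 were listed as lower and 2 as higher at the first step, and the authors' deposited table called 3 lower (GH3.3, IAA29 and SAUR63) and 0 higher at the second. Of that list SAUR63 and SAUR65 were the members, and SAUR65 missed the adjusted p limit at the second step, at 0.21 in the authors' deposited table. GH3.3 and IAA29 turned around, at log2 ratios of 1.38 and 1.1 at the first step and -2.37 and -2.36 at the second from the means in the authors' deposited table.

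ABCB21 (AT3G62150), an auxin transporter of the plasma membrane, stood at 1454 and 1349 normalized counts in wild type, 893 and 827 in IBH1-Ox, and 332 and 285 in the double line. PYL6 (AT2G40330), an abscisic acid receptor, stood at 270 and 265, then 147 and 134, then 91.7 and 86.0. CCD8 (AT4G32810), an enzyme of strigolactone synthesis, was the higher member, at 27.0 and 20.3, then 64.2 and 60.3, then 134 and 88.1. The double-line libraries of CCD8 differed from each other by more than the IBH1-Ox libraries did. Its second log2 ratio was 0.84 ± 0.31, and the authors' deposited table gives it an adjusted p of 0.0676.

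Of the flavonoid genes, an enzyme and an activator were higher and a repressor was lower. A5GT (AT4G14090), the anthocyanin 5-O-glucosyltransferase, stood at 29.4 and 23.7 normalized counts in wild type, 79.2 and 97.2 in IBH1-Ox, and 183 and 216 in the double line. MYB111 (AT5G49330), an activator of flavonol synthesis genes, stood at 25.4 and 36.1, then 48.2 and 73.8, then 189 and 136. MYBL2 (AT1G71030), a MYB protein that represses anthocyanin synthesis, stood at 933 and 1004, then 442 and 455, then 58.2 and 63.0. Over both steps A5GT was 7.53-fold and MYB111 5.29-fold higher than in wild type, and MYBL2 was 16-fold lower.

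On a list of 16 flavonoid and anthocyanin genes, which does not hold MYBL2, A5GT and MYB111 were the only ones listed at the first step, both as higher. The authors' deposited table called 11 of the 16 higher and 0 lower at the second step, with a median log2 ratio of 0.89. Chalcone synthase CHS, the entry enzyme, stood at 1.24, and flavonol synthase FLS1 at 1.02 at that step from the means in the authors' deposited table. The earlier steps of the pathway were thus not shown to be higher in IBH1-Ox, while absence from the first table does not show that a gene did not differ.

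PRE1 (AT5G39860) itself was a member. It stood at 66.7 and 56.4 normalized counts in wild type, 140 and 151 in IBH1-Ox, and 9460 and 9325 in the double line. The second step, 64.4-fold, includes the 35S:PRE1-YFP transgene, whose reads fall on the same gene, whereas the first step (2.37-fold) took place without it. IBH1 (AT2G43060) was the mirror case and missed the rule narrowly. It stood at 179 and 138 normalized counts in wild type, 11790 and 12997 in IBH1-Ox, and 18485 and 18465 in the double line, a 78.2-fold first step and a 1.49-fold second. IBH1 reads were thus higher in both double-line libraries than in either IBH1-Ox library, beside each second step given here, and their part in those steps was not tested. Among 25 listed factors of the HLH and bHLH classes, PRE1 and PIF4 were the only members. At the first step 2 of the 25 were listed as higher and 6 as lower, and at the second the authors' deposited table had 9 higher and 10 lower. IBL1, AIF1, AIF4 and PAR2 were lower at the first step and higher at the second, at -0.66, -1.47, -0.89 and -0.84 and then 2.6, 2.86, 1.56 and 1.06, as log2 ratios from the means in the authors' deposited table.

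Other transcription factor genes among the members were BHLH100 and ZFHD1 (higher) and AT2G43140 (lower). BHLH100 (AT2G41240), one of the bHLH factors induced by lack of iron, stood at 128 and 130 normalized counts in wild type, 395 and 214 in IBH1-Ox, and 1155 and 1245 in the double line. Its IBH1-Ox libraries differed widely, and its log2 ratios were 1.24 ± 0.44 and 1.98 ± 0.45. On a list of 16 iron and copper genes BHLH100 was the single member. Of the 16, 3 were listed as higher and 3 as lower at the first step. The authors' deposited table called 9 of them higher and 2 lower at the second, with a median log2 ratio of 1.04. BHLH101, a close relative of BHLH100, was at 1.93 and then at 0.44 from the means in the authors' deposited table (adjusted p = 0.701 for the second). The relatives BHLH38 and BHLH39 were not listed at the first step and stood at 2.48 and 1.86 at the second from those means. The iron uptake genes IRT1 and FRO2 turned around instead, at -4.12 and -3.95 at the first step and 3.75 and 3.65 at the second from the means in the authors' deposited table. AT2G43140, annotated as a bHLH protein, stood at 169 and 177, then 86.7 and 67.7, then 7.06 and 16.8 normalized counts. Its second step of 6.48-fold lower became 10.9-fold lower without the double-line library of smaller size factor. The double-line values of AT2G43140 are 4 and 8 reads. ZFHD1 (AT1G69600), a zinc finger homeodomain factor, stood at 74.6 and 58.6, then 135 and 116, then 203 and 225.

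Genes of the cell wall and the space outside the cell were 7 of the 31 higher and 3 of the 43 lower members, a grouping made after the values had been seen and given as a description. CSLB03 (AT2G32530), a cellulose synthase-like protein, stood at 179 and 136 normalized counts in wild type, 378 and 428 in IBH1-Ox, and 907 and 871 in the double line. GER3 (AT5G20630), a germin-like protein of the apoplast, stood at 4448 and 4836, then 8965 and 10089, then 22950 and 22956. AT1G60590, annotated as a pectin lyase-like protein, stood at 200 and 178, then 307 and 348, then 785 and 758. The first 2 were over 2-fold higher at both steps, at 2.55-fold and 2.20-fold for CSLB03 and 2.05-fold and 2.41-fold for GER3.

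HRGP1 (AT3G54590), AT3G54580 and AT1G23720 encode proline-rich, extensin-like wall proteins. HRGP1 stood at 2165 and 2009 normalized counts in wild type, 3902 and 3705 in IBH1-Ox, and 5449 and 7058 in the double line. HRGP1 and AT3G54580 are direct neighbours, 2.209 kb apart on chromosome 3, and in both the double line had its lower value in the same library. That library was also the lower one in AT1G23720 on chromosome 1 (10322 and 12068) and in AT5G47250 (390 and 506). The trait is thus not particular to the neighbours. Repetitive extensin-like genes share sequence, so reads may be split among them in a way that the counts do not show. AT1G62770, annotated in the family of invertase and pectin methylesterase inhibitors, stood at 144 and 104, then 212 and 172, then 310 and 348. The lower wall members were AT3G16670 (Pollen Ole e 1 family), the cutinase gene CDEF1 and AT2G15880 (leucine-rich repeat family). AT3G16670 stood at 1671 and 2137, then 1134 and 1135, then 157 and 195, so that its second step (6.44-fold lower) was the larger. None of 19 expansin and XTH genes, the usual wall-loosening group of elongating cells, was a member. At the first step 5 of the 19 were listed as higher and 4 as lower, and at the second the authors' deposited table called 11 higher and 1 lower, with a median log2 ratio of 0.54. All 4 that were lower first then stood higher. EXPA1, EXPA8, EXPA11 and XTH7 were lower at the first step, at -1.43, -1.14, -1.17 and -1.1, and higher at the second, at 1.16, 1.12, 2.27 and 1.98, as log2 ratios from the means in the authors' deposited table. Of the 5 that were higher first, XTH15 turned to lower, at 0.88 and then -0.80 from those means, while EXPA7, EXPA18, XTH23 and XTH30 lay between -0.09 and 0.41 at the second step.

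**Figure D3:**
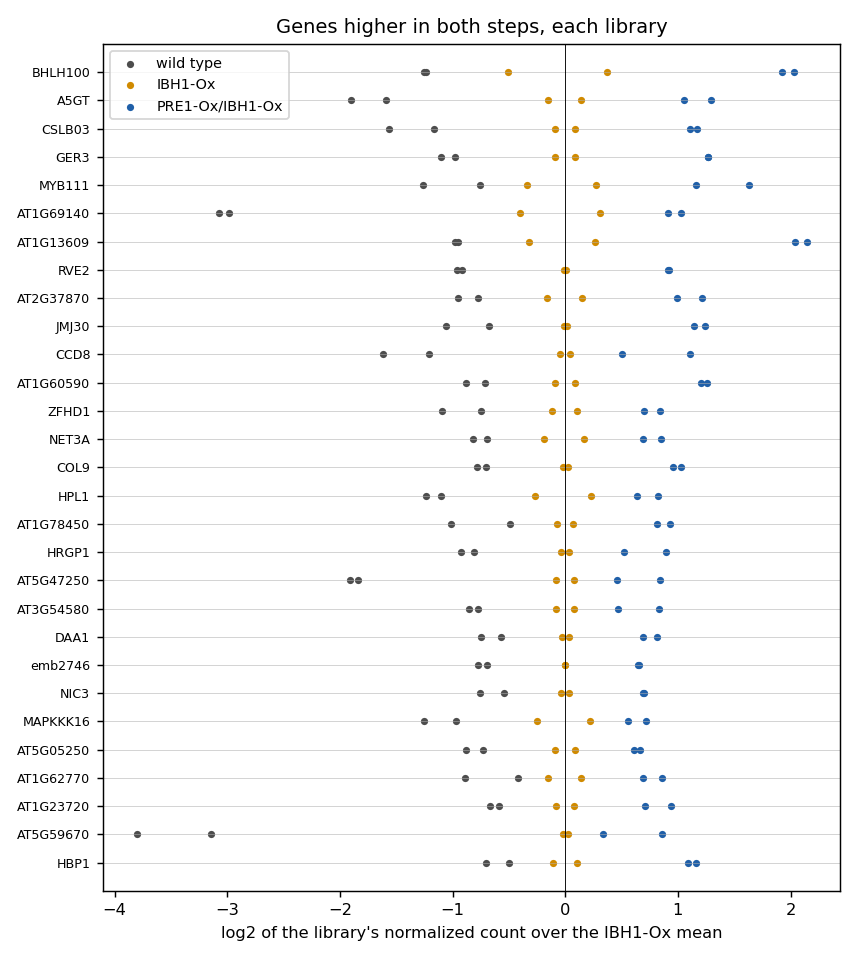
Log2 of each library's normalized count over the IBH1-Ox mean (horizontal axis) for 29 of the 31 genes higher at both steps, sorted by the lesser of their steps; PRE1 and AT3G28320 lie off this scale and are left out. Grey points are wild type, ochre IBH1-Ox and blue the double line; AT1G69140 and AT5G59670 have the lowest wild type points, and BHLH100 has IBH1-Ox points that lie far apart.

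Defence and receptor-like genes were 3 of the higher members and 1 of the lower. AT1G13609, a defensin-like gene, stood at 77.0 and 75.5 normalized counts in wild type, 179 and 119 in IBH1-Ox, and 660 and 613 in the double line. AT5G47250, annotated with LRR and NB-ARC domains as disease resistance proteins have, stood at 75.4 and 78.9, then 267 and 299, then 390 and 506. AT5G59670, a leucine-rich repeat kinase gene, stood at 7.14 and 4.51, then 62.1 and 64.0, then 115 and 79.8. For AT5G47250 and AT5G59670 the first step (3.67-fold and 10.8-fold) was by far the larger, and the second missed the adjusted p limit in the authors' deposited table (0.0584 and 0.343). RLP19 (AT2G15080), a receptor-like protein, was lower, at 133 and 130, then 63.2 and 67.7, then 26.5 and 16.8.

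AT3G28320, an uncharacterized gene, had the largest first step of all members. It had 3 reads in wild type, all in 1 library, and 1511 in IBH1-Ox, which makes a ratio of 619 with an exact 95% counting interval from 211 to 3006 that covers counting error only. It stood at 2.38 and 0 normalized counts in wild type, 897 and 828 in IBH1-Ox, and 1598 and 1624 in the double line. The gene was thus near 0 in wild type alone, with a second step of 1.87-fold. Its ratio of deposited means at the first step was 725-fold, and 362-fold without the wild type library that held no read. AT3G28310, with a locus tag close in number, had a like pattern, 41.3-fold higher at the first step and 1.49-fold at the second. The large first step was thus not particular to AT3G28320. Whether AT3G28310 and AT3G28320 share reads was not tested. The transcribed pseudogene AT1G69140 also had low wild type values, 3.17 and 3.38 normalized counts, against 20.3 and 33.2 in IBH1-Ox and 54.7 and 50.4 in the double line.

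Of the remaining higher members, 9 belong to metabolism, transport and other roles. HPL1 (AT4G15440), annotated as a hydroperoxide lyase, stood at 39.7 and 36.1 normalized counts in wild type, 70.7 and 99.7 in IBH1-Ox, and 132 and 151 in the double line. HBP1 (AT1G17100) and AT1G78450 are both annotated as SOUL haem-binding proteins. HBP1 stood at 661 and 573, then 867 and 1002, then 2094 and 1985, with a first step of 1.51-fold that only just met the limit, and AT1G78450 stood at 129 and 90.2, then 173 and 191, then 321 and 346. AT2G37870, of the lipid-transfer protein superfamily, stood at 73.0 and 64.2, then 111 and 138, then 289 and 248. NIC3 (nicotinamidase), MAPKKK16 (a kinase of the MAP kinase cascade), NET3A (a protein of the actin-binding NET family), DAA1 and emb2746, and the uncharacterized gene AT5G05250, had ratios between 1.55-fold and 2.14-fold at each step.

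CIPK20 (AT5G45820), a protein kinase that works with calcium sensors, headed the lower members by the lesser of its steps. It stood at 1444 and 1380 normalized counts in wild type, 422 and 400.0 in IBH1-Ox, and 101 and 83.9 in the double line. The log2 ratios were -1.78 ± 0.051 and -2.16 ± 0.14, and over both steps the gene was 15.3-fold lower than in wild type. AT1G15125, annotated as a methyltransferase, stood at 304 and 335, then 104 and 119, then 24.7 and 39.9, and CYP71B4, a cytochrome P450, at 476 and 496, then 240 and 170, then 72.3 and 73.5. AT3G55240, of unknown function, had the largest second step of the lower members. It stood at 431 and 404, then 225 and 241, then 7.06 and 10.5, 1.79-fold lower at the first step and 26.6-fold lower at the second. Its double-line values are 4 and 5 reads, so the size of the second step is limited by counting error.

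Among the other lower members were transporters and stress-related enzymes. PHT4;1 (AT2G29650), a phosphate transporter of the chloroplast, stood at 2537 and 2441 normalized counts in wild type, 1518 and 1585 in IBH1-Ox, and 614 and 655 in the double line. NIP6;1 (AT1G80760), a boron channel of the aquaporin family, stood at 132 and 135, then 86.7 and 91.1, then 56.4 and 58.8. The libraries of each group lay close together for both genes, although NIP6;1 only just met the limit at both steps. AT3G23550, a MATE efflux family gene, stood at 60.3 and 68.8, then 33.2 and 19.7, then 12.3 and 4.20. Its second step of 3.20-fold lower became 6.30-fold lower without the double-line library of larger size factor. The double-line values of AT3G23550 are 7 and 2 reads. GPX7 (AT4G31870), of the glutathione peroxidase family, stood at 205 and 197, then 130 and 83.7, then 35.3 and 33.6. HMT3 (AT3G22740), a homocysteine methyltransferase of methionine synthesis, stood at 88.1 and 85.7, then 45.0 and 32.0, then 19.4 and 21.0. AT3G53830 (RCC1 family) stood at 159 and 153, then 70.7 and 54.2, then 19.4 and 16.8, and its near neighbour Fes1B, an HSP70 cofactor gene 7.538 kb away with 2 genes between, at 502 and 531, then 329 and 306, then 219 and 204. AT3G53830 had the larger ratio of this pair at both steps. The remaining lower members were AT3G49160 (pyruvate kinase family), AT4G10510 (subtilase family), AT2G23840 (HNH endonuclease), AT2G30600 (BTB/POZ domain), AT3G46700 (UDP-glycosyltransferase superfamily) and the little-characterized genes AT3G50350, AT5G12050, AT2G34010, AT3G45443 and AT1G69160. Their ratios lay between 1.5-fold and 2.92-fold lower at each step, and the 2.92-fold of AT3G49160 rested on wild type libraries far apart, at 276 and 145 normalized counts.

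**Figure D4:**
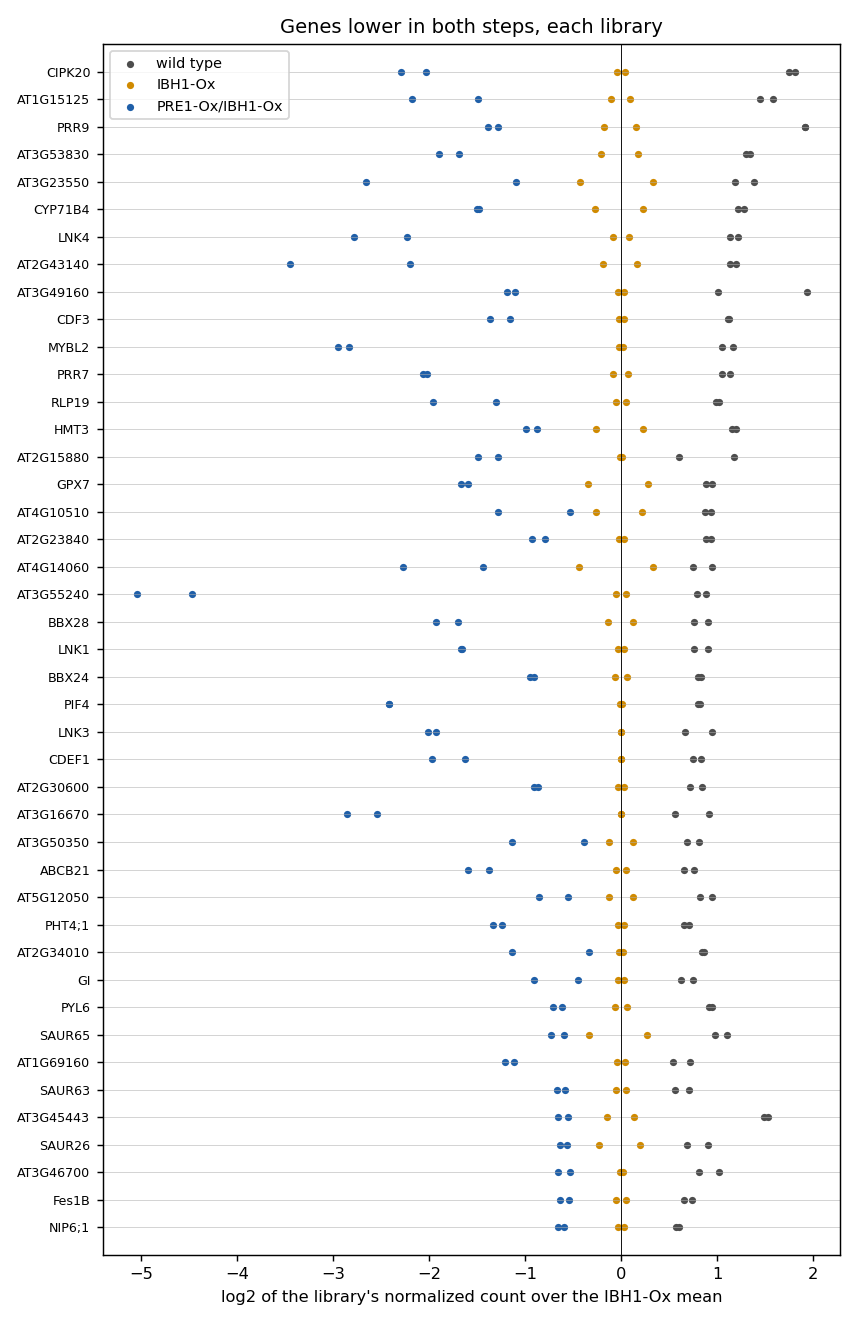
Log2 of each library's normalized count over the IBH1-Ox mean (horizontal axis) for the 43 genes lower at both steps, sorted by the lesser of their steps. Grey points are wild type, ochre IBH1-Ox and blue the double line; AT3G55240 has the lowest double-line points, and AT2G43140 and AT3G23550 have double-line points that lie far apart.

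Neighbouring members did not always share a direction. A5GT (higher) and AT4G14060 (lower, annotated as a polyketide cyclase and lipid transport protein) lie 13.81 kb apart on chromosome 4 with 3 genes between them. The pseudogene AT1G69140 (higher) and AT1G69160 (lower) lie 7.819 kb apart on chromosome 1 with 1 gene between them. By chromosome, the members fell on chromosome 3 in 27.03% of cases, against 19.85% of all genes past the limit on the mean, and on chromosome 5 in 18.92%, against 23.4%. Of the members on chromosome 3, 5 were higher and 15 lower.

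The limit passes through a continuous range of ratios. Among higher genes HBP1, AT5G59670 and AT1G23720 lay just inside, with a lesser step of 1.51-fold, 1.54-fold and 1.55-fold, and AT3G28310, IBH1 and AT4G33120 lay just outside, with 1.49-fold, 1.49-fold and 1.48-fold. Among lower genes NIP6;1, AT3G46700 and Fes1B lay just inside, each with a lesser step of 1.5-fold, and AT4G27300, AT2G29670 and NCED4 lay just outside, with 1.5-fold (rounded up), 1.48-fold and 1.47-fold.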

How the data were processed

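RNA of 6 libraries in 3 groups was measured by sequencing (TruSeq kit, per the labels' protocols). TopHat, DESeq and TAIR10 are named, without versions, in the submitters' processing notes, and whether counting used strand is not given. Per the file headers, the deposited tables hold base means, a signal: the authors' group mean of size-factor normalized counts. Fold, a ratio of the means, was deposited with the authors' p-value and adjusted p-value. The authors' deposited log2 of that fold, in the first table, is not printed: log2 ratios of both steps were computed from the deposited means. The first table holds called genes only (1547, largest adjusted p 0.0492). The second holds 33518 genes, 24451 with a p-value, and 5 summary entries that were left out. Reads with more than 1 alignment made up 12.8% (IBH1-Ox) and 10.3% (double line) of the summed signal, reads in no feature 1.05% and 0.959%, and ambiguous reads 1.25% and 1.24%.

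The members and lists were chosen with earlier results of these data known, and roles were assigned by hand after the values had been seen. Named genes were, in each direction, the 12 members of largest lesser step, the 5 of largest summed step, 3 on either side of the limit, list members, neighbours within 5 genes, and members with a regulatory, hormone, transport, wall or defence annotation; others were added after their values had been seen. RefSeq (TAIR10.1) entries were found for all 74 members and gave names, positions and promoters.

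Each group mean was split into the pair of whole reads that gives it, within a relative tolerance of 1e-11 plus the rounding of 10 significant digits. At least 99.8% of means above 0 split into 1 pair, and IBH1-Ox reads were equal in both tables for 1546 of 1546 genes. On simulated means of the second table, at least 99.83% split, 100% of them rightly, and at most 0.733% of random values split by accident. The recovered libraries have no replicate number. Double-line values were multiplied by 1.12 onto the scale of the first table. The mean chi-square between libraries of a group, 1 under sampling noise, lay between 1.24 and 3.68, so every library was kept as its own sample. As an alternative to the authors' test, limma-voom (R 4.3.3, limma 3.58.1) was run on the reads of the second comparison. Other alternatives were the limits on fold and mean, centring, TMM factors, a pseudocount, and each library left out.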

Additional observations from a re-analysis of the deposited data

How the results depend on the processing

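With a limit of 2-fold at both steps, 5 genes were higher and 13 lower. Other limits on the mean, the adjusted p limit, centring, a pseudocount of 5 and TMM factors kept the counts between 24 and 32 for higher and between 34 and 56 for lower genes. Leaving out 1 library gave 26 to 32 higher and 37 to 54 lower genes. Of the members, 16 of 31 higher and 27 of 43 lower ones met the limits in all 6 of these settings. The authors' deposited test called 5496 genes at the second step, limma-voom on recovered reads 7617, and the authors' test with a limit of 1.5-fold 2494. Of 1183 alternative values for 148 ratios of members, 1108 moved by no more than the SE of the ratio and 0 changed sign. With 2 libraries per group, that SE is built from the same gaps that leaving out a library opens. Some of the 1183 values were also fixed in advance. A first-step ratio uses neither the double line nor the centring, and a second-step ratio does not use wild type. The count of 1108 and the lack of sign changes therefore cannot show that the ratios are stable. By more than 1.5 times, leaving out a library moved only AT3G28320 at the first step and AT3G23550 and AT2G43140 at the second. No paired analysis was possible because the deposited group means carry no replicate number. For wild type only listed genes could be read, so its total reads are not known. Its size factors were 1.26 and 0.887, against 0.934 and 0.812 for IBH1-Ox in the same comparison. AT3G28320, with 3 wild type reads, is limited by counting error. Counting error also limits double-line values with few reads, such as the 4 and 5 reads of AT3G55240.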
